A study of Homo sapiens with 16 samples.

Results

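The 10 genes described here encode the core kinases of the Hippo pathway and the adaptors that bring those kinases together: STK3, STK4, SAV1, LATS1, LATS2, MOB1A, MOB1B, NF2, WWC1 and TAOK1. They were matched by gene symbol and are 10 of the 66023 genes in the deposited count table. Their messenger RNA was measured in SW480 cells, an established human colon adenocarcinoma line, in which the LIM protein Ajuba was lowered or raised. Parental cells (n = 2) were unmodified. shScrambled cells (n = 2) carried a lentiviral short hairpin RNA of random sequence, shAjuba1 cells (n = 3) a hairpin against the coding region of AJUBA, and shAjuba2 cells (n = 3) a hairpin against a non-coding region of its transcript. Ajuba OE cells (n = 3) carried a lentiviral overexpression construct driven by the CMV promoter, and Control cells (n = 3) the same construct with the Ajuba sequence cut out. Each transduced line was a stable line selected with puromycin, an agent the Parental cells did not need. Each knockdown line is therefore 1 transduced line with 1 hairpin, the study speaks of the libraries of a line as technical replicates, and p-values measure only the spread between these libraries. The knockdown comparisons share the shScrambled libraries, so their values are given side by side and are not independent of each other.

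The Hippo pathway restrains growth through a chain of kinases. STK4 and STK3, also called MST1 and MST2, pair with the scaffold SAV1 and phosphorylate LATS1 and LATS2 together with the LATS coactivators MOB1A and MOB1B. Active LATS phosphorylates YAP and TAZ, transcription coactivators that drive growth genes with the TEAD factors, and so keeps them out of the nucleus. Upstream, the FERM protein NF2 (Merlin) and the scaffold WWC1 (KIBRA) recruit the kinases to the cell cortex, and TAOK1 can activate the MST kinases. Ajuba and its LIM relatives bind LATS and limit its activity, and the pathway is best known in the intestine for its part in regeneration after injury.

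Library totals ranged from 30132396 to 69684675 counts, and the 10 genes together took 0.0962% to 0.128% of the counts of a library. Levels are given as RPM, reads of a gene per 1000000 counts of its library. STK3 had the lowest counts, 294 to 928 per library, so counting error was small for each of the 10 genes. The labelled target, AJUBA, was at 50.1 ± 3.12 RPM (SD, n = 3) in shAjuba1 cells and 62.0 ± 5.93 RPM in shAjuba2 cells, below 82.5 ± 1.26 RPM (n = 2) in shScrambled cells, and at 525.9 ± 56.1 RPM in Ajuba OE cells against 93.2 ± 6.34 RPM in Control cells (n = 3 each). By the quasi-likelihood test of edgeR, with p-values adjusted by Benjamini and Hochberg's method, AJUBA passed an adjusted p of 0.05 in shAjuba1 cells (adjusted p = 2.19e-05) and in Ajuba OE cells (adjusted p = 7.69e-05) and did not in shAjuba2 cells (adjusted p = 0.0773), which passed against Parental cells (log2 fold change −0.60, adjusted p = 0.0364). Of 6 colon epithelial markers, the keratins KRT8 and KRT18 were at 1152 to 3165 RPM in every library. EPCAM (48.3 to 242 RPM), VIL1 (8.88 to 59.1 RPM), CDH1 (3.92 to 36.2 RPM) and CDX2 (7.40 to 26.8 RPM) were lower and differed between lines. VIL1 was at 54.4 to 56.3 RPM in shScrambled, 18.7 to 25.5 in shAjuba1 and 8.88 to 12.9 in shAjuba2 cells. In the same order of lines, means were 120.9, 73.4 and 69.8 RPM for EPCAM and 9.88, 8.52 and 9.39 RPM for CDX2. They were 8.05, 13.6 and 5.21 RPM for CDH1, which had means of 23.0 in Parental and 32.8 in Ajuba OE cells. For KRT8 they were 1930, 2380 and 2170 RPM, and for KRT18 1603, 2192 and 1753 RPM. KRT8, KRT18 and CDH1 thus had higher means in shAjuba1 than in shScrambled cells, and VIL1, EPCAM and CDX2 lower ones. The part of these marker differences in the changes of the Hippo genes was not tested. Of the markers of other cell types, the leukocyte genes PTPRC and CD3E reached at most 0.0645 and 0.603 RPM. The fibroblast genes COL1A2 and PDGFRA reached at most 0.412 and 0.167 RPM, the endothelial gene PECAM1 0.745 and the hepatocyte gene ALB 0.631 RPM. The endothelial gene VWF was at 1.89 to 5.29 RPM and the fibroblast gene COL1A1 at 5.71 to 26.4 RPM. Replicate 2 of shAjuba2, of Control and of Ajuba OE stood apart from the other libraries of its line: pairs that held it differed, over genes, by a median chi-square of 6.32 to 14.3 times that of sampling noise, against 1.87 to 5.89 times for the other pairs. In bulk RNA, fewer expressing cells and less RNA per cell cannot be told apart.

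In shAjuba1 cells, 7 of the 10 Hippo genes changed against shScrambled cells: LATS2 and WWC1 rose, and STK3, SAV1, LATS1, MOB1B and TAOK1 fell. MOB1B, a LATS coactivator, fell to 0.39 of the shScrambled level, and WWC1, the KIBRA scaffold, rose to 1.96 times that level. The count of 7 stands beside 38.4% of all 21082 tested genes called in that comparison, of which 18.2% were higher and 20.2% lower. The median log2 fold change of the 10 genes was −0.30 against −0.01 over all tested genes, and their median absolute log2 fold change was 0.43 against 0.30. That absolute median was not above all tested genes elsewhere against a control line. It was 0.21 against 0.29 in shAjuba2 cells and 0.196 against 0.200 in Ajuba OE cells. Between shScrambled and Parental cells it was 0.08 against 0.25, and between Control and Parental cells 0.04 against 0.23. In shAjuba2 cells, edgeR called 0 of the 10 genes, where 7.63% of all tested genes were called. There, the smallest adjusted p-values of the 10 were those of MOB1B (0.0529) and MOB1A (0.110, edgeR). DESeq2 called 1 of the 10, MOB1B, where it called 10.5% of all tested genes. Without replicate 2 of shAjuba2, edgeR called 3 of the 10, where 22.7% of all tested genes were called. Of the 10 genes, 1 changed in Ajuba OE against Control cells, LATS2, which fell, where 5.43% of all tested genes were called and 3.03% were called lower. A gene was called when its adjusted p in the edgeR test, adjusted over all genes tested, was below 0.05.

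**Figure D1:**
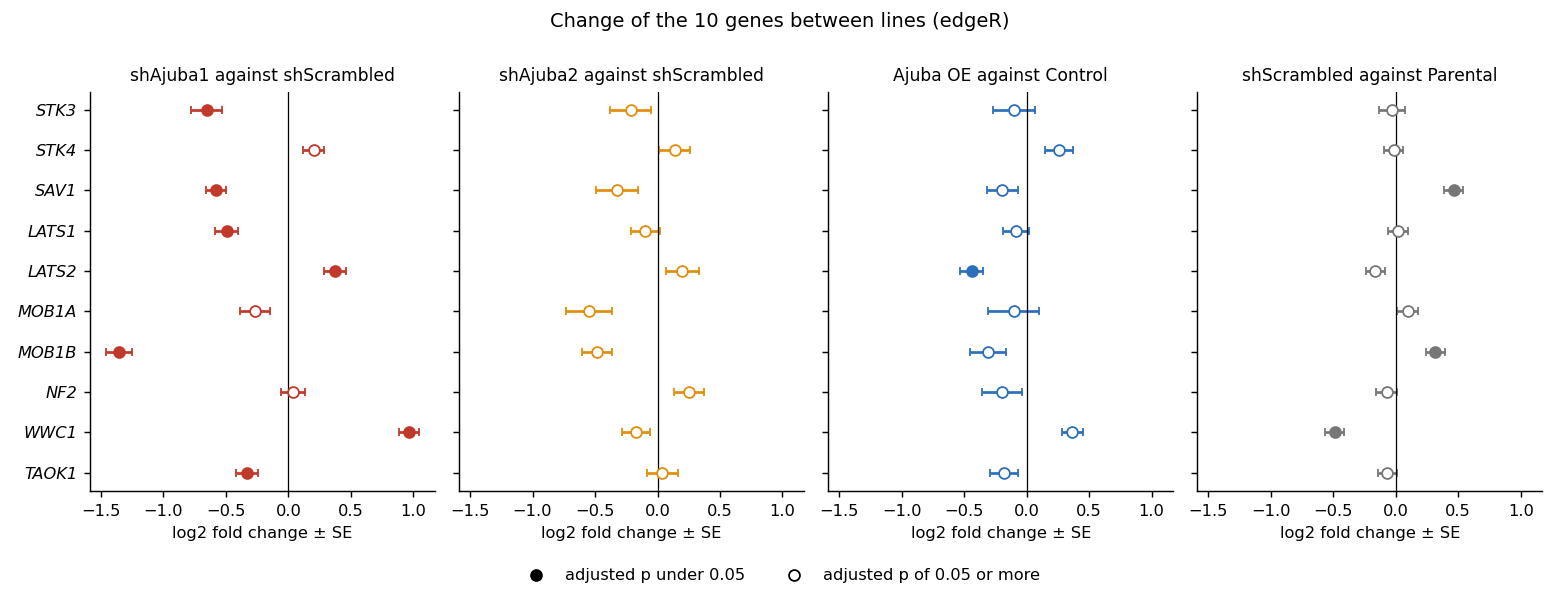
Log2 fold change (x axis) of each of the 10 Hippo genes (rows) in shAjuba1 and shAjuba2 cells against shScrambled cells, in Ajuba OE cells against Control cells and in shScrambled cells against Parental cells; bars are standard errors from the edgeR fit, and filled symbols mark genes called at an adjusted p under 0.05. The widest values are those of shAjuba1 cells, −1.36 for MOB1B and 0.97 for WWC1, and LATS2 is the 1 filled symbol of Ajuba OE cells at −0.44.

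The MST kinases lie at the top of the chain. STK4 was at 204.7, 207.3 and 187.0 RPM in the shAjuba1 libraries and at 177.6 and 166.0 RPM in the shScrambled libraries. These ranges did not overlap, yet the log2 fold change of 0.20 ± 0.08 (SE) did not pass the test (adjusted p = 0.0784, edgeR). Its log2 fold change was 0.14 in shAjuba2 cells (adjusted p = 0.523) and 0.26 in Ajuba OE cells (adjusted p = 0.277). STK3 was at 9.67, 10.2 and 8.11 RPM in the shAjuba1 libraries against 15.4 and 13.7 RPM in the shScrambled libraries. All 3 shAjuba1 libraries were lower, and STK3 fell by 0.65 ± 0.12 on the log2 scale (SE, adjusted p = 0.00113, edgeR). In shAjuba2 cells STK3 was at 14.5, 10.4 and 14.0 RPM, where replicate 2 alone lay well below the shScrambled libraries, and the log2 fold change was −0.22 (adjusted p = 0.452). Replicate 2 of Ajuba OE was likewise the lowest, at 9.25 RPM against 13.3 and 13.5 RPM in the others, and the log2 fold change against Control cells was −0.10 (adjusted p = 0.815). Per exon length, STK3 was the lowest of the 10 genes, with a median of 1.06 RPKM (RPM per kilobase of merged exons) over the 16 libraries, and STK4 had a median of 11.5 RPKM. Merged exons join all annotated transcripts. They hold 12604 bases for STK3 and 16570 for STK4, against 2833 and 6366 bases in the transcript marked canonical. Levels and ranks per exon length therefore depend on the length used.

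SAV1, the scaffold that holds the MST kinases, was at 56.7, 55.8 and 57.0 RPM in shAjuba1 cells against 85.6 and 81.2 RPM in shScrambled cells. It fell by 0.58 ± 0.08 on the log2 scale (SE, adjusted p = 1.12e-04, edgeR). The Parental libraries, at 59.3 and 61.1 RPM, lay near the shAjuba1 libraries and not near the shScrambled ones. Against Parental cells the log2 fold change of shAjuba1 cells was −0.12 and was not called (adjusted p = 0.246). SAV1 was itself higher in shScrambled than in Parental cells, by 0.46 ± 0.08 on the log2 scale (SE, adjusted p = 6.27e-05, edgeR). In shAjuba2 cells SAV1 was at 68.0, 55.7 and 83.0 RPM, a spread that reached from the Parental to the shScrambled level (log2 fold change −0.33, adjusted p = 0.259). SAV1 lies on the minus strand of chromosome 14 (positions 50632058 to 50668306, hg38), and 31.9% of its exon bases are also exon of ATL1 on the other strand. ATL1 was at 6.85 ± 0.87 RPM in shAjuba1 cells (SD, n = 3) and 13.5 ± 1.91 RPM in shScrambled cells (n = 2). The study lists its counting options without a strand setting. How reads from the shared bases were assigned, or whether they were counted, is therefore not known.

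LATS1 (ENSG00000131023, chromosome 6, 149658153 to 149718105, minus strand, hg38) and LATS2 (ENSG00000150457, chromosome 13, 20973036 to 21061586, minus strand), the kinases that phosphorylate YAP and TAZ, moved in opposite directions in shAjuba1 cells. LATS1 was at 32.6, 32.3 and 28.7 RPM in the shAjuba1 libraries against 43.5 RPM in each shScrambled library, lower in 3 of 3. It fell by 0.49 ± 0.09 on the log2 scale (SE, adjusted p = 0.00117, edgeR). LATS2 was at 51.1, 52.9 and 56.7 RPM in the shAjuba1 libraries against 41.2 and 40.8 RPM in the shScrambled libraries, higher in 3 of 3. It rose by 0.37 ± 0.09 on the log2 scale (SE, adjusted p = 0.00460, edgeR). The Parental libraries held 45.4 and 46.0 RPM of LATS2, between both lines. Against Parental cells the log2 fold change of LATS2 was 0.20 and was not called (adjusted p = 0.0757), and without replicate 2 of shScrambled its adjusted p was 0.0634. LATS1 was called against Parental cells too, at −0.48.

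Ajuba OE cells held the least LATS2, at 36.0, 33.5 and 31.8 RPM, below 49.3, 48.4 and 46.0 RPM in Control cells. Each Ajuba OE library was lower than every other library in the series, and LATS2 fell by 0.44 ± 0.09 on the log2 scale (SE, adjusted p = 0.0330, edgeR). The call did not survive leaving out any 1 of the 6 libraries (adjusted p 0.0718 to 0.169, log2 fold change −0.47 to −0.40), and it was kept when replicate 2 was left out of both lines (−0.44, adjusted p = 0.0296). Against Parental cells LATS2 was at −0.39 in Ajuba OE cells (adjusted p = 0.0620). LATS1 was at 40.9, 35.7 and 40.0 RPM in Ajuba OE cells and 47.4, 41.6 and 40.0 RPM in Control cells, ranges that overlapped (log2 fold change −0.08, adjusted p = 0.741). In shAjuba2 cells neither LATS gene was called, with LATS1 at 44.7, 41.6 and 39.7 RPM (log2 fold change −0.10, adjusted p = 0.626) and LATS2 at 43.4, 49.6 and 52.5 RPM (log2 fold change 0.20, adjusted p = 0.389). All 3 shAjuba2 libraries were above both shScrambled libraries in LATS2.

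**Figure D2:**
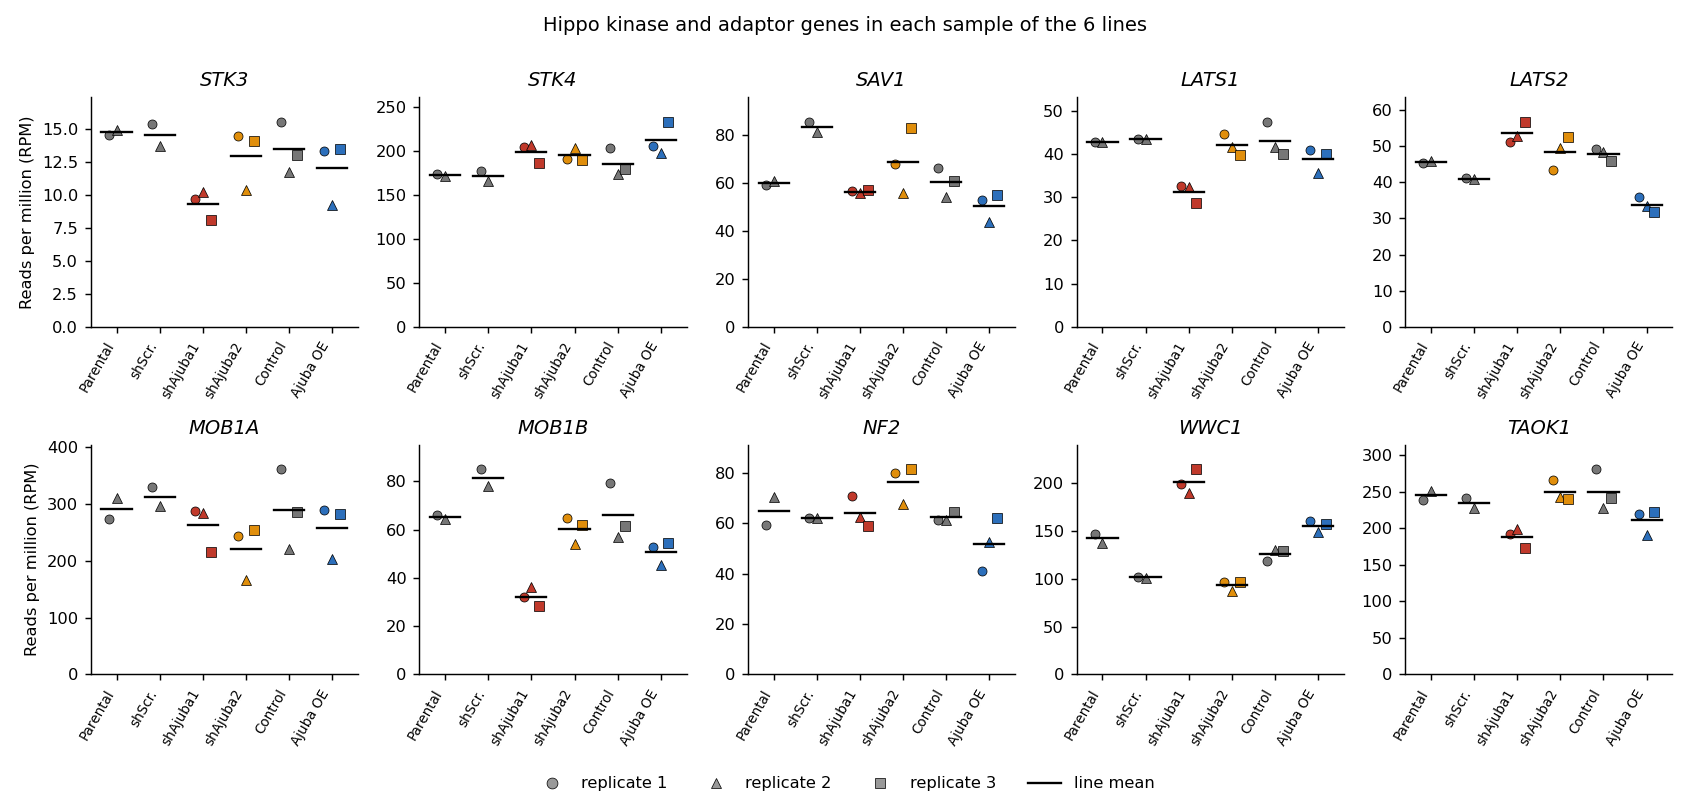
Level of each of the 10 Hippo genes (1 panel a gene, y axis in RPM from 0) in the 16 libraries by line; symbols are libraries, with a shape for each replicate number, and horizontal bars line means (n = 2 for Parental and shScrambled, abbreviated shScr., and n = 3 for the others). WWC1 is highest and MOB1B lowest in the shAjuba1 libraries, at 190 to 214 RPM and 28.5 to 36.2 RPM, and LATS2 is lowest in the Ajuba OE libraries, at 31.8 to 36.0 RPM.

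MOB1A and MOB1B encode near-identical coactivators of LATS, so the reads of these genes must be told apart by base differences. Their coding sequences, 648 bases each without the stop codon, were aligned end to end and were the same at 79.6% of positions, with 132 differing bases and no identical run longer than 17 bases. The reads were 50 bases long at each end, and no 50-base window of either gene occurred in the other. The most alike stretch of 120 coding bases (coding positions 142 to 261) is shown to make clear how a read from 1 gene differs from the other, in transcript direction from GENCODE 44 on hg38, with each of the 18 differing bases in capitals. It lies in coding exons, within chr2:74167028-74172625 on the minus strand for MOB1A and chr4:70959001-70970010 on the plus strand for MOB1B, across 2 exons in each gene.
MOB1A: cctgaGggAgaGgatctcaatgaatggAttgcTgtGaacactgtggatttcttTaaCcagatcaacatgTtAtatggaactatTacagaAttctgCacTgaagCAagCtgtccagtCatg
MOB1B: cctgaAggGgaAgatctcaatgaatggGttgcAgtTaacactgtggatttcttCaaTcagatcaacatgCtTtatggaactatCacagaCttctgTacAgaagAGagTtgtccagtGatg

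MOB1B (ENSG00000173542, chromosome 4, 70902326 to 71022449, plus strand, hg38) was the one of the 10 genes that fell furthest in shAjuba1 cells. It was at 31.9, 36.2 and 28.5 RPM there against 85.0 and 78.1 RPM in shScrambled cells, and the shAjuba1 libraries were below every other library of the series. It fell by 1.36 ± 0.11 on the log2 scale (SE, adjusted p = 1.04e-06, edgeR). The drop was smaller against Parental cells, at 66.2 and 64.3 RPM, and still called (log2 fold change −1.05, adjusted p = 1.97e-05). MOB1B was itself higher in shScrambled than in Parental cells by 0.32 ± 0.08 on the log2 scale (SE, adjusted p = 0.00328, edgeR), a call lost without replicate 2 of Parental (adjusted p = 0.0561) or replicate 1 of shScrambled (adjusted p = 0.0601). In shAjuba2 cells MOB1B was at 64.9, 54.2 and 62.0 RPM, below both shScrambled libraries and overlapping the Parental ones. The log2 fold change of −0.48 ± 0.12 (SE) did not pass the test (adjusted p = 0.0529, edgeR). The Ajuba OE libraries held 52.7, 45.3 and 54.7 RPM of MOB1B against 79.3, 57.1 and 61.3 RPM in Control cells, all lower (log2 fold change −0.31, adjusted p = 0.309).

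MOB1A was at 287.8, 285.2 and 216.5 RPM in shAjuba1 cells, 243.3, 167.1 and 254.1 RPM in shAjuba2 cells, and 329.5 and 296.5 RPM in shScrambled cells. Both knockdown lines were below the shScrambled libraries, with wide spreads, and neither difference was called (log2 fold change −0.26, adjusted p = 0.103 in shAjuba1 cells and −0.55, adjusted p = 0.110 in shAjuba2 cells, edgeR). The lowest MOB1A values of shAjuba2, Control (221.8 RPM) and Ajuba OE (204.1 RPM) were each those of replicate 2. Without replicate 2 of shAjuba2, where 22.7% of all tested genes were called, 3 of the 10 genes were called: MOB1A fell by 0.39 (adjusted p = 0.0109), MOB1B fell by 0.42 (adjusted p = 0.00422), and NF2 rose by 0.32 on the log2 scale (adjusted p = 0.0200, edgeR). MOB1A was the most abundant of the 10 genes per exon length, with a median of 44.1 RPKM over all libraries against 6.72 RPKM for MOB1B.

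Upstream of the kinases, WWC1 (ENSG00000113645, chromosome 5, 168291645 to 168472303, plus strand, hg38) varied between lines without overlap. It was at 198.6, 189.7 and 214.4 RPM in shAjuba1 cells, 96.5, 87.4 and 96.3 RPM in shAjuba2 cells, and 102.0 and 101.2 RPM in shScrambled cells. The shAjuba1 libraries were the highest of the series and the shAjuba2 libraries the lowest. WWC1 rose by 0.97 ± 0.08 on the log2 scale in shAjuba1 cells (SE, adjusted p = 1.65e-06, edgeR), and its log2 fold change in shAjuba2 cells was −0.17 (adjusted p = 0.379). The Parental libraries, at 147.0 and 137.1 RPM, lay between the knockdown lines. Against Parental cells WWC1 rose by 0.47 in shAjuba1 cells (adjusted p = 6.65e-04) and fell by 0.67 in shAjuba2 cells (adjusted p = 0.0230, edgeR), and WWC1 was lower in shScrambled than in Parental cells by a log2 fold change of −0.49 ± 0.08 (SE, adjusted p = 2.80e-05). WWC1 was at 160.6, 148.8 and 156.7 RPM in Ajuba OE cells and 118.9, 129.9 and 129.3 RPM in Control cells, without overlap. The log2 fold change of 0.37 ± 0.09 (SE) missed the threshold (adjusted p = 0.0551, edgeR). It passed without replicate 2 of both lines (0.40, adjusted p = 0.0316), where 8.18% of all tested genes were called, and with DESeq2 (0.41, adjusted p = 0.00677), where 6.24% were. Against Parental cells the log2 fold change was 0.18 and was not called (adjusted p = 0.366), and with any 1 library left out the adjusted p was 0.0878 to 0.208.

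NF2 and TAOK1 varied less. NF2, which recruits LATS to the membrane, was at 70.8, 62.4 and 59.1 RPM in shAjuba1 cells around 61.9 RPM in both shScrambled libraries (log2 fold change 0.04, adjusted p = 0.793, edgeR). It was at 80.0, 67.6 and 81.4 RPM in shAjuba2 cells, all above the shScrambled libraries (log2 fold change 0.25, adjusted p = 0.239), and at 41.2, 52.4 and 61.9 RPM in Ajuba OE cells against 61.2, 61.3 and 64.4 RPM in Control cells (log2 fold change −0.20, adjusted p = 0.583). The Ajuba OE libraries thus ranged from well below the Control libraries to within their range. TAOK1, a kinase that acts on the MST kinases, was at 192.0, 199.7 and 172.9 RPM in shAjuba1 cells against 241.0 and 228.3 RPM in shScrambled cells, lower in 3 of 3. It fell by 0.33 ± 0.09 on the log2 scale (SE, adjusted p = 0.00965, edgeR), a call lost without replicate 1 of shScrambled (adjusted p = 0.127) and kept against Parental cells (−0.41). In shAjuba2 cells its log2 fold change was 0.04 (adjusted p = 0.868), and in Ajuba OE cells −0.18 (adjusted p = 0.468).

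Part of these calls turned on the control line. Against Parental cells, where 38.1% of all tested genes were called, 5 of the 10 genes were called in shAjuba1 cells: WWC1 rose, and STK3, LATS1, MOB1B and TAOK1 fell. Of shAjuba2 cells against Parental cells 1 of the 10 was called (8.14% of all tested genes), and of Ajuba OE cells 0 of the 10 (7.15%). The control lines themselves differed in 3 of the 10 genes between shScrambled and Parental cells (SAV1, MOB1B and WWC1), where 30.7% of all tested genes were called. Between Control and Parental cells 0 of the 10 differed by edgeR, where 0.370% of all tested genes were called. DESeq2 called 0 of the 10 as well, where it called 2.17% of all tested genes.

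The hairpin lines were also compared with each other, which tests directly whether their levels differed. WWC1 was higher in shAjuba1 than in shAjuba2 cells by 1.15 ± 0.11 on the log2 scale (SE, adjusted p = 1.33e-04, edgeR). MOB1B was lower by a log2 fold change of −0.86 ± 0.13 (SE, adjusted p = 0.00163), and LATS1 by −0.38 ± 0.11 (SE, adjusted p = 0.0396). The LATS1 call was lost without replicate 1, 2 or 3 of shAjuba1 or replicate 1 of shAjuba2 (adjusted p 0.106 to 0.130). These are 3 of the 10 genes, where 19.6% of all tested genes were called. TAOK1 (−0.36, adjusted p = 0.0556) and STK3 (−0.42, adjusted p = 0.0914) did not overlap between the hairpin lines and were not called. Without replicate 2 of shAjuba2, 6 of the 10 were called, where 26.9% of all tested genes were called.

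Over the 6 lines together, 8 of the 10 genes differed by an edgeR quasi-likelihood F test on all 16 libraries, where 45.7% of all tested genes were called. WWC1 had the smallest adjusted p (1.35e-07), followed by MOB1B (3.53e-05), LATS2 (0.00150) and LATS1 (0.00493). NF2 (adjusted p = 0.147) and MOB1A (adjusted p = 0.249) were not called, and MOB1A joined when replicate 2 of shAjuba2, Control and Ajuba OE was left out (adjusted p = 0.0499). With scaling by library size alone the count was 8 as well, with NF2 called (adjusted p = 0.0474) and STK4 not (adjusted p = 0.0937). The highest line mean exceeded the lowest by 2.53 times for MOB1B and 2.15 times for WWC1, and by 1.24 to 1.65 times for the other 8. In WWC1 the lines ranked shAjuba2, shScrambled, Control, Parental, Ajuba OE and shAjuba1 from low to high, and no neighbouring lines overlapped. In MOB1B shAjuba1 lay below Ajuba OE without overlap, and the neighbours above Ajuba OE overlapped. In LATS2 the order began with Ajuba OE, shScrambled and Parental without overlap, and from Parental through Control and shAjuba2 to shAjuba1 neighbouring lines overlapped. Per exon length, medians over the 16 libraries ran from 44.1 RPKM for MOB1A through TAOK1 (13.7), WWC1 (13.2), STK4 (11.5), SAV1 (10.4), NF2 (8.38), LATS2 (8.19), MOB1B (6.72) and LATS1 (4.86) to 1.06 RPKM for STK3. This order holds for merged exon lengths and may differ with transcript lengths.

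Since 3 steps of the chain are each served by a pair of paralogs, the level of 1 paralog over the other was computed within each library from RPKM values. LATS2 was at 2.37 to 2.99 times LATS1 in the shAjuba1 libraries and at no more than 2.00 times in the other 13. MOB1A was at 10.4 to 12.3 times MOB1B in the shAjuba1 libraries and at 4.21 to 7.51 times in the others. The shAjuba1 libraries thus lay outside the range of the rest for both pairs. For the MST kinases, STK3 was at 0.0571 to 0.0648 times STK4 in shAjuba1 cells, 0.109 to 0.114 times in shScrambled cells and 0.0614 to 0.0849 times in Ajuba OE cells, so that shAjuba1 and Ajuba OE overlapped. These ratios restate the levels given for each gene and were not tested. Their size depends on the exon lengths used, while their order between libraries does not.

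**Figure D3:**
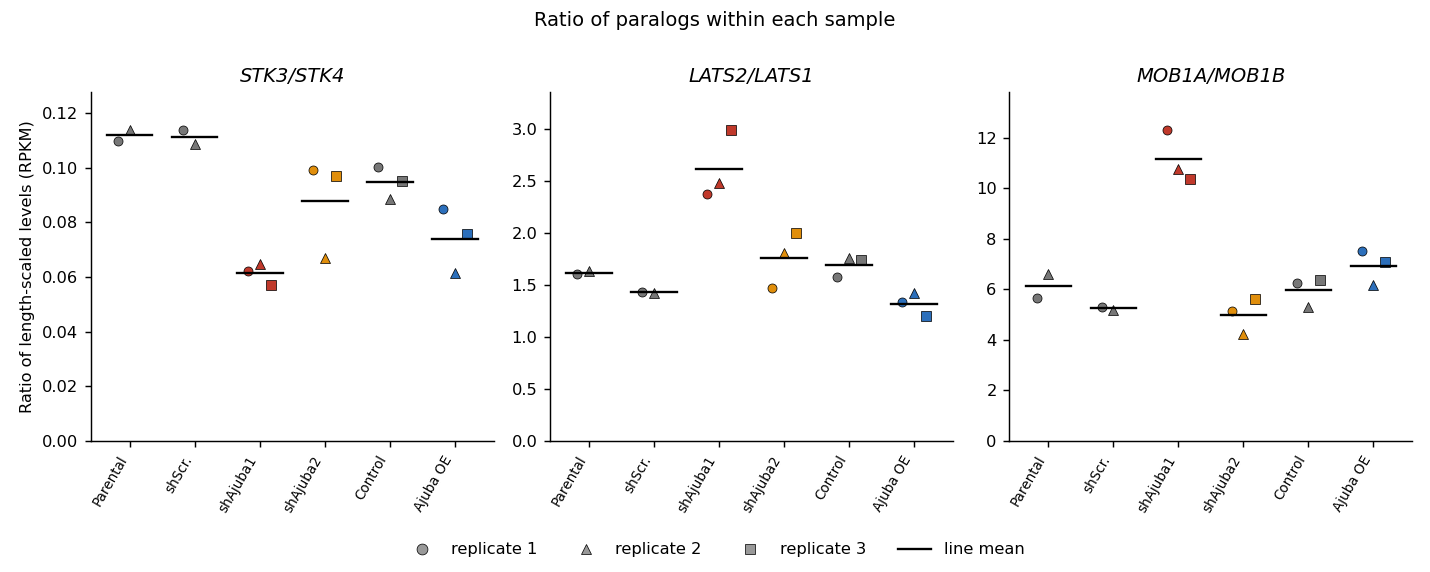
Ratio of paralog levels within each library (y axis, RPKM over RPKM from 0) for STK3 over STK4, LATS2 over LATS1 and MOB1A over MOB1B, by line; symbols are libraries, with a shape for each replicate number, and horizontal bars line means. The 3 shAjuba1 libraries lie above all others for LATS2 over LATS1 (2.37 to 2.99) and MOB1A over MOB1B (10.4 to 12.3).

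Base composition differed between the genes that fell and rose. The fallen genes of shAjuba1 cells had transcripts of 34.1% (MOB1B), 38.4% (STK3), 39.0% (LATS1), 40.1% (TAOK1) and 42.5% (SAV1) G and C, and the risen genes had 51.8% (LATS2) and 54.4% (WWC1). Of the 3 genes not called, NF2 had the highest GC content of the 10 (55.6%) with a log2 fold change of 0.04, STK4 had 43.1% with 0.20, and MOB1A had 37.3% with −0.26. Over all tested genes the median log2 fold change in shAjuba1 cells was −0.16 for genes under 45% GC and 0.11 for genes of 50% GC or more, with a Spearman correlation of 0.28 across genes, which are not independent replicates. The correlation was 0.23 in shAjuba2 cells and 0.09 in Ajuba OE cells. Libraries of a line differed as well, by the Spearman correlation of GC content with a library's deviation from the mean level. It was 0.16, 0.05 and 0.44 in the shAjuba1 libraries and −0.23 and −0.04 in the shScrambled libraries. In the Control libraries it was −0.49, 0.15 and −0.26, and in the Ajuba OE libraries −0.13, 0.21 and −0.20. When the trend of each library on GC was removed, an alternative chosen after seeing the data, MOB1B was at −1.10 (adjusted p = 8.14e-10) and WWC1 at 0.90 (adjusted p = 2.20e-09) in shAjuba1 cells by edgeR. The 7 called genes stayed called with the same direction, STK4 joined them (0.32, adjusted p = 1.52e-04), where 47.0% of all tested genes were called. Each of the 7, fallen or risen, had a log2 fold change of smaller absolute size than before. TAOK1 was at −0.16 (adjusted p = 0.0186, edgeR), LATS1 at −0.31, SAV1 at −0.44, STK3 at −0.46 and LATS2 at 0.34. MOB1A, not called, was at −0.05. The part of GC content in the change of any single gene was not tested.

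**Figure D4:**
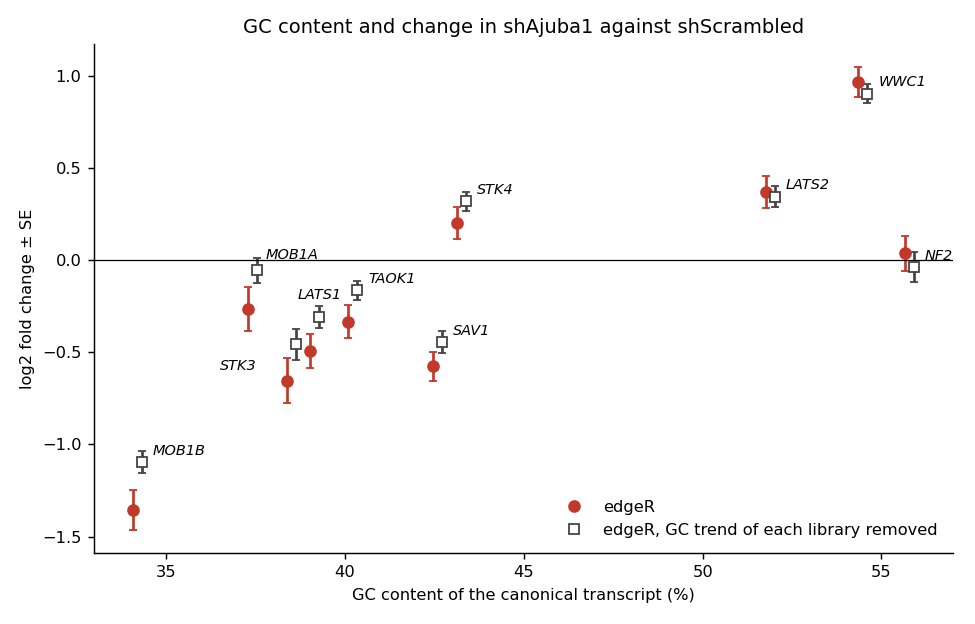
Log2 fold change of shAjuba1 against shScrambled cells (y axis) of the 10 Hippo genes by the GC content of their transcripts (x axis, percent), as fitted (circles) and with the GC trend of each library removed (squares); bars are standard errors from edgeR. MOB1B stays lowest (−1.36 as fitted, −1.10 with the trend removed) and WWC1 highest (0.97 and 0.90).

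The rest of the pathway was described from 57 other Hippo genes, listed by role. In shAjuba1 cells 24 of 54 tested were called (44.4%), 13 higher and 11 lower, beside 38.4% of all tested genes. Without AJUBA, the targeted gene, 23 of 53 were called (43.4%). Fewer were called without replicate 1 of shScrambled, as was so over all tested genes. Against Parental cells 26 of 54 were called, beside 38.1% of all tested genes, an alternative added after seeing the data. Of 10 angiomotin, YAP, TAZ and TEAD genes, 8 were called, 6 higher and 2 lower. AMOTL1, an angiomotin that holds YAP in the cytoplasm, rose by 2.10 on the log2 scale from 22.2 ± 2.07 to 96.0 ± 3.29 RPM (adjusted p = 1.34e-08), TEAD4 rose by 0.73 (adjusted p = 7.99e-05), and the related factor TEAD1 fell by 0.93 (adjusted p = 2.11e-06, edgeR). VGLL4, which competes with YAP for TEAD, fell by 0.32 (adjusted p = 0.0119). YAP1 itself was not called (log2 fold change 0.15, adjusted p = 0.187). Of 20 tested upstream regulators 9 were called, 4 higher and 5 lower, and RASSF4 rose by 0.69 (adjusted p = 7.39e-04, edgeR). RASSF6, an MST-binding protein at 8.07 ± 0.53 RPM in shScrambled and 1.21 ± 0.11 RPM in shAjuba1 cells, fell by 2.76 on the log2 scale (adjusted p = 4.21e-08), and the kinase TNIK fell by 1.23 (adjusted p = 2.17e-07, edgeR). Of the 16 genes of the STRIPAK phosphatase complex, which opposes the MST kinases, 4 were called: STRN4 (0.45) and PPP2CA (0.30) rose, and the kinase STK26 (−1.32, adjusted p = 2.00e-06, edgeR) and the scaffold STRN (−0.45) fell. Of 5 tested NDR kinase and other MOB genes, MOB3A alone was called (−0.29), and of the 3 Ajuba family LIM genes AJUBA fell and WTIP rose (0.91). Several of these changes were smaller or absent against Parental cells: AMOTL1, at 51.4 ± 6.50 RPM there (n = 2), rose by 0.87 (adjusted p = 2.97e-05), TEAD1 fell by 0.45 (adjusted p = 6.52e-04), TEAD4 rose by 0.31 (adjusted p = 0.0221) and RASSF6, at 3.54 ± 0.14 RPM, fell by 1.59 (adjusted p = 2.42e-05, edgeR). PPP2CA (−0.10, adjusted p = 0.358) and VGLL4 (−0.05, adjusted p = 0.694) were not called against Parental cells. RASSF6 was at 0.30 ± 0.12 RPM in Control cells, which carry no hairpin, below both knockdown lines.

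In shAjuba2 cells 3 of the 54 were called (5.56%, beside 7.63% of all tested genes), and 16 of 54 without replicate 2 of shAjuba2, beside 22.7% of all tested genes. The 3 were as follows: AMOTL1 rose by 2.48 (adjusted p = 4.10e-04), the FERM protein FRMD6 rose by 0.70 (adjusted p = 0.0315), and RASSF6 fell by 3.84 on the log2 scale (adjusted p = 3.07e-04, edgeR). FRMD6 was called in shAjuba1 cells as well, at 0.48 (adjusted p = 0.00217). Against Parental cells, at 130.6 ± 1.56 RPM, FRMD6 was called in neither knockdown line (−0.03, adjusted p = 0.845 in shAjuba1 and 0.19, adjusted p = 0.379 in shAjuba2 cells). In shAjuba2 against Parental cells AMOTL1 rose by 1.25 (adjusted p = 0.00646) and RASSF6 fell by 2.66 (adjusted p = 0.00188, edgeR). These were 2 of the 7 genes called of 54, beside 8.14% of all tested genes. Among 53 tested in Ajuba OE cells, 6 were called. These were AJUBA, which the construct raises by design, and 5 of the other 52 (9.62%, beside 5.43% of all tested genes), all lower. Against Parental cells 10 of 53 without AJUBA were called, beside 7.15% of all tested genes, with AMOTL1, FRMD6, PTPN14, AMOTL2 and WTIP among them and lower. AMOTL1 fell by 4.23 on the log2 scale from 26.6 ± 1.81 to 1.37 ± 0.47 RPM (adjusted p = 1.35e-04), FRMD6 fell by 2.03 (adjusted p = 3.24e-04), the phosphatase PTPN14 fell by 1.02 (adjusted p = 0.00139), AMOTL2 fell by 0.83 (adjusted p = 0.00294), and WTIP, an Ajuba family gene, fell by 0.71 (adjusted p = 0.0475, edgeR). In each of the 3 comparisons with shScrambled or Control cells, AMOTL1 had a larger absolute log2 fold change than any of the 10 core genes. This did not hold for shAjuba1 against Parental cells, where AMOTL1 was at 0.87 and MOB1B at −1.05 on the log2 scale.

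The 250 bases before each gene start in the RefSeq promoters of GRCh38.p14 were searched on both strands for GGAATG, the core of the TEAD motif. It was in 0 of 13 windows of 9 of the genes, and in 11.9% of all 35116 windows. That says only that these letters are not in those windows. STK3 had no entry and was not searched.

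Across the 16 libraries, the genes with the pattern most like that of each member were ranked by Pearson correlation of log2 RPM (TMM-scaled, from edgeR) over 19384 genes. The 4 members with the smallest adjusted p over the 6 lines are given. WWC1 was most like EPB41L1 (0.98), PPARD (0.98) and KCNK5 (0.97), and MOB1B most like XRN1, HERC4 and LPCAT2 (0.98 each). LATS1 was most like UBR3 (0.96), RAB3GAP2 (0.96) and KIF5B (0.95), and LATS2 most like MIR1915HG, MSX1 and AMOTL2 (0.90 each). Among the Hippo genes themselves LATS1 went with MOB1B (0.93) and TAOK1 (0.93), STK3 went with MOB1B (0.89), and MOB1B and WWC1 were opposed (−0.72). The 16 libraries fall into 6 lines and differ in depth and GC trend, so these correlations describe this set of libraries.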

How the data were processed

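RNA of 16 SW480 libraries was sequenced by the study as paired-end reads of 50 bases from a stranded mRNA kit. The authors aligned the reads with HISAT2 to GRCh38 and deposited gene counts from featureCounts, per the labels; versions, annotation release and strand setting are not given in the sources used here. The deposited counts are raw, 1 whole number per gene and library. Symbols and positions were taken from GENCODE 44, in which 56434 of the 66023 identifiers were found. RPM is the count over the library total; RPKM also divides by merged exon length. Lines were compared with edgeR 4.0.16 (R 4.3.3, limma 3.58.1): TMM scaling, filterByExpr by line, glmQLFit and glmQLFTest on the lines compared, Benjamini-Hochberg adjustment over all tested genes, threshold 0.05. SE is the absolute log2 fold change over the root of F. Fits were tested on simulated data. The study used DESeq2, an alternative here (1.42.0).

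The named genes were the 10 members, AJUBA, the 3 genes most correlated with 4 members and, in each list of other Hippo genes, the 2 called genes with the smallest adjusted p in each direction; Cell type markers and ATL1, which overlaps SAV1, were named as checks. YAP1 was named besides, after its values were seen. Members and lists were chosen with earlier results of these data known. The labels speak of triplicates, and 2 libraries each were analysed here for Parental and shScrambled cells. Other scalings, filters, fits, control lines and left-out libraries were also run, and a GC correction and Parental as control for the other Hippo genes were added after the data were seen.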

Additional observations from a re-analysis of the deposited data

Results flagged for a closer look

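The hairpin lines differed from each other by the edgeR quasi-likelihood test of the difference itself in 3 of the 10 genes, where 19.6% of all tested genes were called. Both hairpins target AJUBA, which was at 50.1 RPM in shAjuba1 and 62.0 RPM in shAjuba2 cells. WWC1 was higher in shAjuba1 than in shAjuba2 cells by 1.15 on the log2 scale (200.9 against 93.4 RPM), MOB1B was lower at −0.86 (32.2 against 60.4 RPM) and LATS1 lower at −0.38 (31.2 against 42.0 RPM). The LATS1 call was lost under 6 of 14 alternatives (adjusted p 0.00595 to 0.130 over them), and those of WWC1 and MOB1B under none of their 14. Each line is 1 transduced line, so hairpin, line and depth of the knockdown cannot be told apart.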

How the results depend on the processing

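Of the 10 genes, the count called in shAjuba1 against shScrambled cells (7) was 5 to 8 under other scalings, filters, tools, the replicate block, the GC correction and Parental as control, 6 to 8 with a library left out, and 1 when the log2 fold change also had to reach 1 in size. In shAjuba2 cells (0) it was 1 with DESeq2 (10.5% of all tested genes called) and 1 against Parental cells (8.14%). It was 2 with every gene of at least 1 count and 1 with all 16 libraries fitted. With a library left out it was 0 to 3, the 3 without replicate 2 of shAjuba2 (22.7%). In Ajuba OE cells (1) it was 0 with every gene, with the fold threshold or against Parental cells (7.15% of all tested genes called). It was 2 with DESeq2 (6.24%), with all 16 libraries or with GC removed. It was 0 with any 1 library left out, and 2 without replicate 2 of both lines (8.18%). Between shScrambled and Parental cells (3) it was 1 with all 16 libraries and 0 with the fold threshold. Between the hairpin lines (3) it was 1 with the fold threshold and 2 to 6 with a library left out. The 6 were without replicate 2 of shAjuba2 (26.9% of all tested genes called). Of the other Hippo genes, 15 (without replicate 1 of shScrambled) to 29 (shAjuba1), 2 to 16 (without replicate 2 of shAjuba2, in shAjuba2) and 5 to 6 (Ajuba OE, 9 without replicate 2 of both lines) were called with a library left out. In shAjuba2 cells 5 were called with library size alone, 7 with DESeq2, 5 with GC removed and 7 against Parental cells, and in Ajuba OE cells 11 against Parental cells. Calls over all genes moved with the setting, as given below, so a count without its share is not a result about the Hippo genes. Replicate numbers were not used as pairs in the main fits. Mean correlations of same-numbered deviations were −0.01, 0.15 and 0.24 for the 3 main comparisons. In Ajuba OE against Control cells they ranged from −0.047 to 0.62 between replicate numbers, so a pairing of some of those libraries was not excluded. With the replicate block the counts were 8, 3 and 5 of the 10, with 2 pairs only for each hairpin line. Over the 21082, 22446 and 21140 genes tested, 8863, 5377 and 5140 were called with it and 8103, 1713 and 1147 without it. Values near 0 changed sign. NF2 in shAjuba1 cells (0.04) was −0.037 with GC removed, −0.043 against Parental cells and −0.043 (without replicate 1 of shAjuba1) to 0.10 with a library left out. In shAjuba2 cells TAOK1 (0.04) was −0.036 against Parental cells and −0.0020 (without replicate 2 of shScrambled) to 0.087 with a library left out, LATS1 (−0.10) was 0.029 with GC removed, and SAV1 (−0.33) was 0.13 against Parental cells. In Ajuba OE cells with a library left out, STK3 (−0.10) was −0.19 to 0.048 and MOB1A (−0.10) −0.27 to 0.090, both above 0 without Control replicate 1 and without Ajuba OE replicate 2. The cause was not tested. Over all genes, calls under the other settings, the fold threshold aside, ranged from 5467 to 9908 in shAjuba1 cells (4711 to 9695 with a library left out), 1324 to 5377 in shAjuba2 cells (182 to 4983) and 944 to 5140 in Ajuba OE cells (412 to 988, and 1701 without replicate 2 of both lines). With the fold threshold they were 2074, 976 and 549. Library size in place of TMM moved the share of higher calls in Ajuba OE cells from 44.1% to 32.5%.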
